A study of Caenorhabditis elegans with 4 samples.

Results

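NURF-1 binding on chromosome V of the nematode Caenorhabditis elegans was described from all peaks that the authors' combined peak list places on V, 1604 of the 10483 in that list. The same chromosome holds 1382 of 9065 peaks in the list of ChIP replicate 1 and 1173 of 7519 peaks in that of ChIP replicate 2. The data come from chromatin immunoprecipitation and sequencing (ChIP-seq) with a polyclonal rabbit antibody, purified by affinity, against NURF-1. All libraries, 2 ChIP and 2 input, were made from whole L3 larvae of the wild-type strain N2, a mixed population of males and hermaphrodites grown at 20 °C. Because whole larvae were used, a peak may come from any tissue, and the fraction of cells that carry it is not known. No value below was computed from the input libraries directly, and how the authors used them in calling peaks was not given.

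Mammalian BPTF, whose worm counterpart is NURF-1, is the largest subunit of the nucleosome remodelling factor NURF. The complex slides nucleosomes with an ISWI-type ATPase, and BPTF reads methylated lysine 4 of histone H3, a mark of active promoters. The autosomes of C. elegans have a central region with frequent housekeeping genes and little meiotic recombination, flanked by arms that recombine more, hold more repeats and carry more histone H3 lysine 9 methylation. Chromosome V is known for its tandem clusters of chemoreceptor genes, which encode G-protein-coupled receptors that are often made in only a few sensory neurons.

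A gene table of the WBcel235 assembly was used to check that description by gene names and gene order alone, without placing any gene on a peak. Of 1308 protein-coding genes whose symbols belong to 22 serpentine chemoreceptor families, 888 (67.9%) were on V, where they made up 17.8% of protein-coding genes. When the 4995 protein-coding genes of V were divided into 3 equal parts in gene order, 370 of the 1665 genes in the left part were chemoreceptor genes (22.2%). The middle part held 181 (10.9%) and the right part 337 (20.2%). The largest families were srh, with 59, 20 and 101 genes in the left, middle and right part, and str, with 60, 37 and 59. The outer parts of V are thus the chemoreceptor-rich ones by gene order, although the middle part is not free of these genes.

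Positions are on the WS220 build, 1-based, as the authors' files give them. The peak lists contain no reads, so sequencing depth is unknown. The peak score is the authors' own, on a scale that is not stated, and it serves here only for comparing peaks of the same list. V was divided into 3 segments of 6.975 Mb, called left, middle and right, and peaks were assigned to them by midpoint. The length of V was taken as the last base of the last peak in any list, 20924149. There is 1 group of 2 ChIP replicates and no other condition, so no test between conditions was possible. Intervals are 95% intervals that cover counting error over peaks only, and neighbouring peaks are not independent. The labels do not state whether the replicates were grown separately, so their spread may be technical in part.

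NURF-1 peaks were densest in the middle segment of V and sparsest in the right segment. The combined list held 544 peaks in the left segment, or 78.0 per Mb (exact Poisson interval 71.6 to 84.8). The middle segment held 611, or 87.6 per Mb (80.8 to 94.8), and the right segment 449, or 64.4 per Mb (58.6 to 70.6). In replicate 1 the densities were 68.4, 76.1 and 53.6 peaks per Mb from left to right, and in replicate 2 they were 54.8, 66.1 and 47.3. The order of the segments was the same in each list.

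The middle segment exceeded the outer segments 1.23-fold for combined peaks (interval 1.11 to 1.36), 1.25-fold in replicate 1 (1.12 to 1.39) and 1.29-fold in replicate 2 (1.15 to 1.46). Most of this gap lay on the right. The middle-to-right ratio was 1.36 (1.20 to 1.54) for combined peaks, 1.42 (1.24 to 1.62) in replicate 1 and 1.40 (1.21 to 1.61) in replicate 2. The middle-to-left ratio was 1.12 in the combined list, with an interval of 0.999 to 1.26 that includes no difference. It was 1.11 (0.982 to 1.26) in replicate 1 and 1.21 (1.05 to 1.39) in replicate 2. The left segment exceeded the right segment 1.21-fold (1.07 to 1.38) for combined peaks, 1.28-fold (1.11 to 1.46) in replicate 1 and 1.16-fold (0.996 to 1.35) in replicate 2. The interval for left against right thus excluded equality in the combined and replicate 1 lists and included it in replicate 2.

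**Figure D1:**
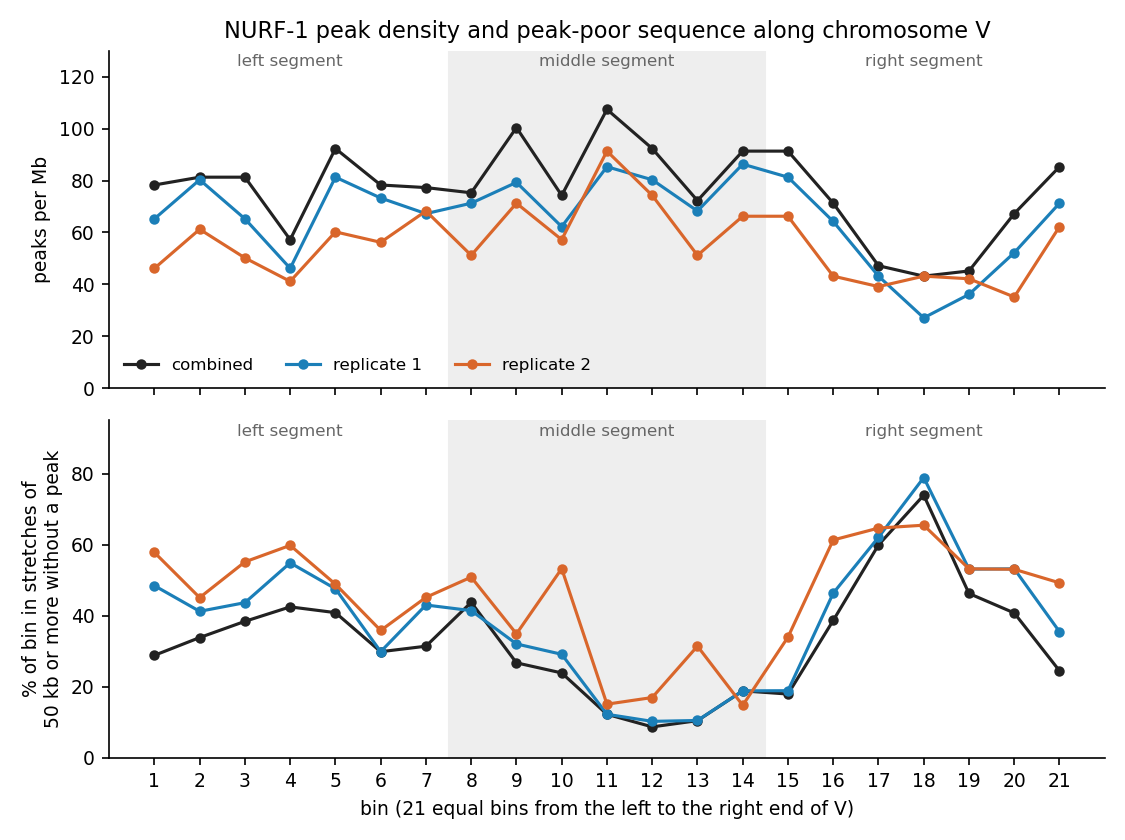
Peaks per Mb (upper panel) and the percent of each bin inside stretches of 50 kb or more without a peak (lower panel), for 21 equal bins from the left to the right end of V and each of the 3 lists; the middle segment is shaded. Density is lowest in bins 17 to 19 of the combined list, where peak-free stretches take up the largest share.

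Density also varied within each segment. Over 7 equal bins per segment, the combined list averaged 78.0 ± 10.5 peaks per Mb (SD over bins) on the left, 87.6 ± 13.9 in the middle and 64.4 ± 19.7 on the right. The bins of the outer segments ranged from 43.2 to 92.3 peaks per Mb and those of the middle segment from 72.3 to 107.4, so the segments overlap bin by bin. Among 1-Mb bins, the fullest were 10 to 11 Mb with 105 combined peaks and 8 to 9 Mb with 95, against a median of 79. Replicate 1 had 82 and 76 peaks in these bins and replicate 2 had 89 and 65. The emptiest were 17 to 18 Mb with 44 combined peaks and 18 to 19 Mb with 49. There, replicate 1 had 28 and 37 peaks and replicate 2 had 45 and 44. These were not the emptiest bins of replicate 2, which had its fewest peaks, 32, at 19 to 20 Mb. It also had only 41 or 42 in the bins at 3 to 4, 15 to 16 and 16 to 17 Mb.

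The low density of the right segment lay in its interior rather than at its tip. A window chosen after its values were seen, from 16 to 20 Mb, held 208 combined peaks, or 52.0 per Mb (45.2 to 59.6). The rest of the right segment held 81.0 per Mb (71.1 to 91.9), close to the left segment. In replicate 1 the window held 40.3 peaks per Mb against 71.6 in the rest of the right segment, and in replicate 2 it held 40.5 against 56.5. The last bin before the right end, from 20 Mb onward, had 85.5 combined peaks per Mb, the seventh highest of 21 bins.

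Peaks of the middle segment were also wider and scored higher. The median width was 373 bp on the left, 437 bp in the middle and 336 bp on the right of the combined list. In replicate 1 these medians were 375, 449 and 344 bp, and in replicate 2 they were 322, 387 and 306.5 bp. Covered bases made up 4.24%, 5.16% and 3.21% of the left, middle and right segment of the combined list. The narrowest peaks measured 146 bp in every segment and every list.

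Median scores in the combined list were 12.2 on the left, 16.5 in the middle and 12.0 on the right, with upper quartiles of 48.8, 81.8 and 44.9. In replicate 1 the medians were 13.2, 15.4 and 13.6, and the upper quartiles 49.1, 91.4 and 53.4. In replicate 2 the medians were 10.4, 12.3 and 8.56, and the upper quartiles 35.9, 46.8 and 33.4. The segments differed little among weak peaks, since the lower quartiles of the combined list were 6.08, 6.49 and 6.08. The separation was larger at the upper quartile. At the 90th percentile the scores were 111.7, 132.1 and 106.7 from left to right in the combined list, and 116.1, 134.9 and 117.1 in replicate 1. In replicate 2 they were 88.4, 95.1 and 71.6, so that the left segment lay nearer to the middle than to the right. Width and score went together across peaks, with a Spearman rho of 0.764 on the left, 0.779 in the middle and 0.789 on the right of the combined list. This is a description over 544, 611 and 449 peaks that share libraries.

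**Figure D2:**
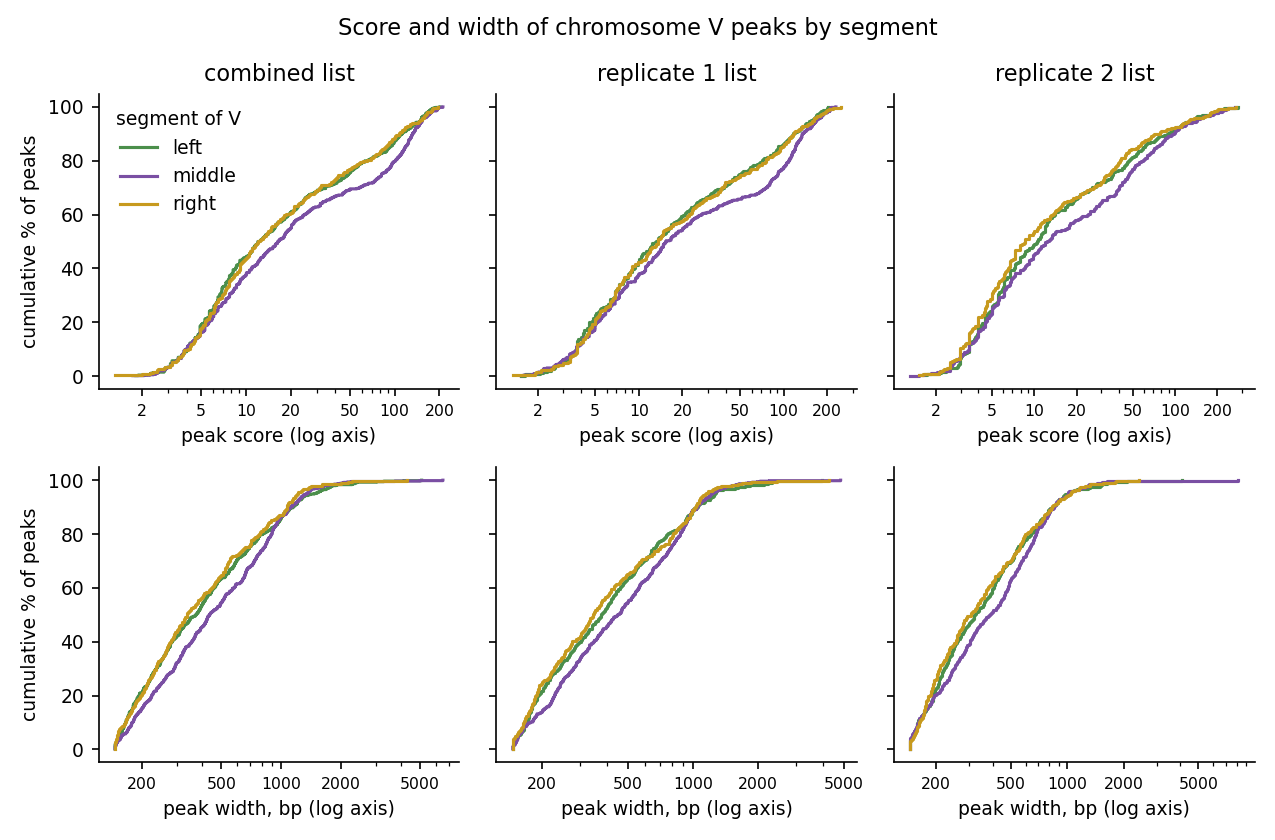
Cumulative percent of V peaks against score (upper row) and against width in bp (lower row), both on log axes, for the 3 lists; each line is 1 segment of V. The middle-segment line lies to the right of the other lines around the upper quartile of score, at 81.8, 91.4 and 46.8 in the combined, replicate 1 and replicate 2 lists.

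Strong peaks were denser in the middle segment of V than in the outer segments in each list, by a ratio that was smallest in replicate 2. They were defined as the top 10% of all nuclear peaks of a list by score, which fixes their share over the whole list at 10.0% for combined peaks, 10.0% in replicate 1 and 10.1% in replicate 2. In the combined list, V had 149 of them, 9.29% of its peaks (Wilson interval 7.96 to 10.8), so its share was near the background. The middle segment held 74, or 12.1% of its peaks (9.76 to 14.9), an interval that includes the background, against 44 on the left (8.09%, 6.08 to 10.7) and 31 on the right (6.90%, 4.91 to 9.63). In density this made 10.6 strong peaks per Mb in the middle segment and 5.38 in the outer segments, a ratio of 1.97 (1.41 to 2.76). Replicate 1 gave 56 strong peaks in the middle, 35 on the left and 28 on the right, and a middle-to-outer ratio of 1.78 (1.22 to 2.59). Replicate 2 gave 51, 39 and 27 and a ratio of 1.55 (1.05 to 2.26), but its middle-to-left ratio was 1.31 (0.845 to 2.04). As a share of peaks, strong peaks made up 7.34% on the left, 10.6% in the middle and 7.49% on the right of replicate 1, and 10.2%, 11.1% and 8.18% in replicate 2. The share in the middle exceeded that in the outer segments by 4.56 percentage points for combined peaks, by 3.14 in replicate 1 and by 1.79 in replicate 2. The interval of the middle share included the background in every list, at 8.21 to 13.5 in replicate 1 and 8.52 to 14.3 in replicate 2. Among the remaining 90% of peaks the ratio was 1.17 (1.05 to 1.30) for combined peaks, 1.21 (1.07 to 1.35) in replicate 1 and 1.27 (1.12 to 1.44) in replicate 2. The window from 16 to 20 Mb, chosen after its values were seen, held 7 strong peaks among its 208 combined peaks. The rest of the right segment, shorter at 2.975 Mb, held 24 among 241. In the same order the counts were 5 and 23 in replicate 1 and 6 and 21 in replicate 2.

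Each segment nevertheless contained peaks of the highest rank. In the middle segment, the highest combined score, 211.24, belonged to a peak at V:12317841-12319072, which scored 229.19 in replicate 1 and 194.46 in replicate 2. It was followed by V:11610253-11611142, with scores of 199.59, 200.12 and 202.89 in the combined, replicate 1 and replicate 2 lists, and V:7236799-7237755, with 198.47, 212.29 and 237.26. On the left, the highest was V:1150361-1152143, with 201.94, 201.79 and 268.2. Next came V:4686133-4687441, with 188.51, 197.6 and 213.35, and V:4730117-4732029, with 183.3, 202.82 and 204.39. On the right, V:18532190-18534364 had 194.74, 247.03 and 237.43, and its replicate 1 score was the highest of that whole list. V:15143538-15144396 had 182.44, 231.79 and 120.7, and V:18967224-18968261 had 180.62, 176.53 and 164.32. All 9 were found in both replicates, which their choice required. Where several replicate peaks overlapped a combined peak, the highest of their scores is given. V:18532190-18534364 overlapped 2 replicate 1 and 4 replicate 2 peaks. In replicate 2, V:1150361-1152143 overlapped 2 peaks and V:4730117-4732029 overlapped 3. The strongest right-arm peak lay inside the sparse window, with 38882 bp free of combined peaks to its right. The genes at these positions were not analysed here.

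The long tail of the spacing between neighbouring peaks was shortest in the middle segment of each list, while the order of the medians changed between lists. Spacing is the number of free bases from the end of one peak to the start of the next. Its median in the combined list was 3532 bp on the left, 3548 bp in the middle and 3863 bp on the right. In replicate 1 the medians were 3734, 4768 and 4288 bp, and in replicate 2 they were 4796, 5296 and 5988 bp. The left segment had the smallest median in each list, and the largest was in the middle segment of replicate 1 and in the right segment of the others. The 90th percentile was shortest in the middle segment of each list. In the combined list it was 39552, 29076 and 39191 bp from left to right. In replicate 1 it was 40183, 34300 and 49039 bp, and in replicate 2 it was 50341, 38793 and 56629 bp.

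The mix of gap sizes also differed between the segments. Gaps under 1 kb made up 28.5% of gaps on the left (24.9 to 32.4), 28.8% in the middle (25.4 to 32.5) and 23.9% on the right (20.2 to 28.0) of the combined list. Gaps of 50 kb or more made up 5.70% on the left (4.04 to 7.98), 2.78% in the middle (1.74 to 4.41) and 7.37% on the right (5.29 to 10.2). The corresponding shares were 7.34%, 3.58% and 9.38% in replicate 1 and 10.5%, 6.07% and 13.1% in replicate 2. Gaps of 50 kb or more thus had their smallest share in the middle segment of each list. Gaps of 10 to 50 kb had their largest share there, at 28.8%, against 24.45% on the left and 26.8% on the right for combined peaks. From left to right their shares were 24.95%, 32.6% and 28.15% in replicate 1 and 27.5%, 33.8% and 28.9% in replicate 2.

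**Figure D3:**
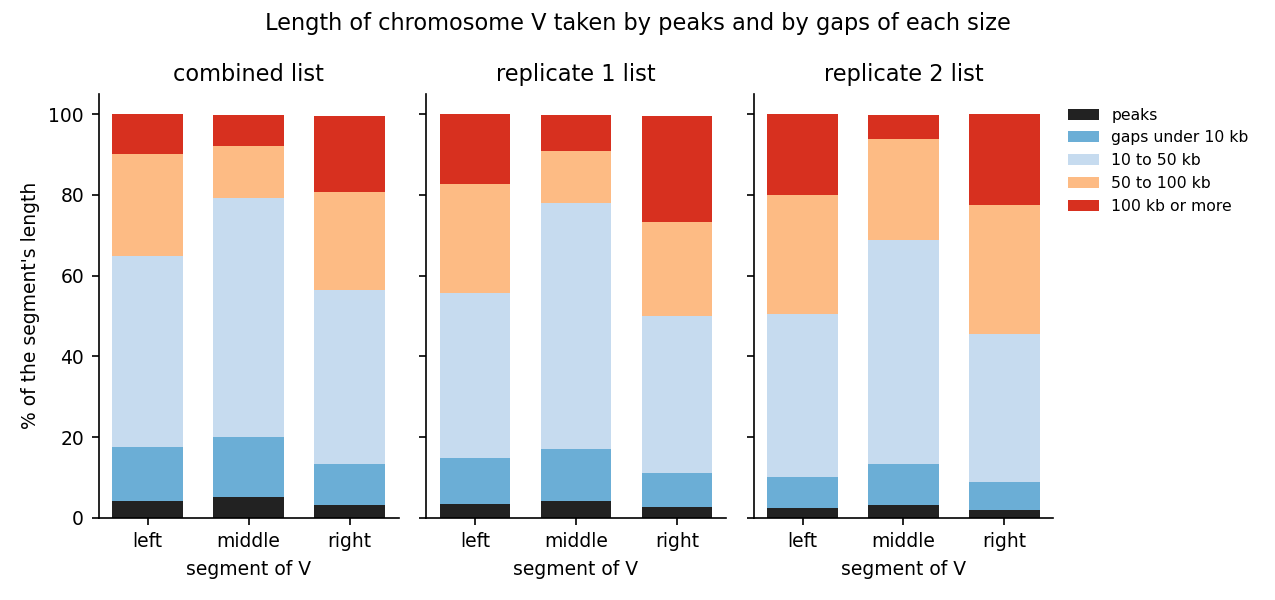
Percent of the length of each segment of V taken by peaks and by gaps of each size class, in the 3 lists. Gaps belong to the segment that holds their midpoint and sequence outside the first and last peak is not counted, so columns can end slightly off 100; gaps of 50 kb or more take 20.5% of the middle segment and 35.3% and 43.2% of the left and right segment in the combined list.

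Peak-poor stretches, meaning gaps of 50 kb or more, numbered 81 on V and added up to 6902 kb, 33.0% of the chromosome. The left segment had 31 of them (35.3% of its length), the middle segment 17 (20.5%) and the right segment 33 (43.2%). Over the outer segments together they took 39.2% of the length for combined peaks, 47.0% in replicate 1 and 52.1% in replicate 2, against 20.5%, 21.9% and 31.1% of the middle segment. The outer-minus-middle gap was 18.7 percentage points for combined peaks, 25.1 in replicate 1 and 21.01 in replicate 2. Stretches of 100 kb or more numbered 5, 4 and 9 from left to right for combined peaks, 9, 5 and 12 in replicate 1, and 10, 3 and 11 in replicate 2.

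Along the chromosome, the share of sequence in such stretches was lowest between 10 and 13 Mb of the combined list, at 12.2%, 8.68% and 10.4% of the 3 successive 1-Mb bins. Replicate 1 gave 12.2%, 10.2% and 10.5% there. Replicate 2 gave 15.1%, 16.9% and 31.3%, and its lowest bin was 13 to 14 Mb at 14.7%. The share was highest between 16 and 18 Mb in the combined list, at 57.3% and 70.4%, and in replicate 1, at 59.4% and 75.3%. In replicate 2 these bins had 62.0% each, and the highest was the neighbouring bin at 15 to 16 Mb, with 62.4%. The left part of the middle segment was less compact, since the bin at 7 to 8 Mb had 42.5% of its length in peak-poor stretches.

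The longest stretches of the left segment ran over V:2891056-3088261 (197.2 kb), V:5278506-5432878 (154.4 kb) and V:4209167-4339557 (130.4 kb). They contained no replicate 1 peak, and 3, 2 and 1 replicate 2 peaks with top scores of 6.70, 10.36 and 3.95. In the middle segment the longest were V:7241529-7413533 (172.0 kb), V:8631926-8773598 (141.7 kb) and V:13193916-13312117 (118.2 kb). The first contained 1 replicate 1 peak with a score of 4.14, and each of the others 1 replicate 2 peak, with scores of 3.44 and 3.80. In the right segment they were V:18237145-18430830 (193.7 kb), V:17659126-17844601 (185.5 kb) and V:19205922-19391181 (185.3 kb). The first contained 1 replicate 2 peak with a score of 2.99, and the other two were empty in both replicates.

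Few replicate peaks lay inside the peak-poor stretches. This follows largely from their definition on the combined list, which overlapped 97.4% of the replicate 1 peaks and 91.2% of the replicate 2 peaks on V. Of the 81, 59 (72.8%) contained the midpoint of no replicate peak: 23 of 31 on the left, 12 of 17 in the middle and 24 of 33 on the right. Replicate 1 had 3 peaks inside them, with a median score of 4.14, against 14.2 for V as a whole. Replicate 2 had 43 peaks inside 20 of them, with a median score of 3.63 and a maximum of 22.16, against a median of 10.6 over V. None of these 46 peaks overlapped a peak of the other replicate. Stretches of 50 kb or more that no list interrupted numbered 78 and took up 33.3% of the left, 18.3% of the middle and 38.9% of the right segment. Peaks that flanked the peak-poor stretches had shares in both replicates that were not separated from those of their whole segment. The shares were 37.7% of 61 on the left (26.6 to 50.3), 65.7% of 35 in the middle (49.2 to 79.2) and 50.8% of 61 on the right (38.6 to 62.9). Over all peaks of these segments they were 47.8%, 56.8% and 50.3%, each inside the interval of its flanking peaks.

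Close neighbours were common in every segment. Combined peaks within 1 kb of a neighbour made up 47.4% of peaks on the left, 46.2% in the middle and 41.0% on the right. Joining such neighbours left 1166 chains on V, of which 880 (75.5%) were single peaks. Chains were again densest in the middle segment, at 62.4 per Mb (56.6 to 68.5), against 55.8 on the left (50.4 to 61.6) and 49.0 on the right (44.0 to 54.5). Chains of 3 or more peaks held 20.2% of peaks on the left, 24.2% in the middle and 15.1% on the right.

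The chain with most members lay in the middle segment at V:13650090-13658839, where 12 combined peaks spanned 8.75 kb. Its median score was 7.20 and its highest 41.92, and 4 of its peaks were found in both replicates. Replicate 1 had 11 peaks there and replicate 2 had 5. Both other long chains were on the left. That at V:1149677-1159404 had 8 peaks with a median score of 24.0, 6 of them found in both replicates, and included the highest-scoring peak of the left segment. That at V:4822146-4829206 had 8 peaks, a highest score of 169.78 and a median of 9.06, and 3 of its peaks were found in both replicates.

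The widest peaks showed that width and score can part. In the middle segment, the widest combined peak covered 6509 bp at V:7918495-7925003 with a score of only 11.02. Replicate 2 had 1 peak of 8181 bp there with a score of 48.07, its widest on V, whereas replicate 1 had 6 peaks of at most 467 bp, the highest scoring 7.71. Ranked within their own lists, these scores stood at percentile 43.57 (combined), 77.56 (replicate 2) and 32.15 (replicate 1). The next widest, 4978 bp at V:9340051-9345028, scored 135.52 and was 1 peak in each replicate. On the left, a 5086 bp peak at V:6220998-6226083 scored 24.41; it corresponded to 5 replicate 1 peaks and 6 replicate 2 peaks. A 4129 bp peak at V:723942-728070 scored 124.28 and was 1 peak in each. On the right, 4302 bp at V:14684486-14688787 scored 152.19 and 2531 bp at V:17981248-17983778 scored 159.41. Replicate 1 had 1 peak at each of these right-arm sites, and replicate 2 had 5 and 2.

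The combined peaks of V were then set against the replicate lists, with an overlap of at least 1 bp. Of the 1604, 833 (51.9%, Wilson interval 49.5 to 54.4) overlapped a peak in both replicates, against 52.9% of all nuclear combined peaks. A further 456 (28.4%) overlapped replicate 1 alone, against 27.7% of the whole list, and 123 (7.67%, 6.47 to 9.07) replicate 2 alone, against 6.56%. The remaining 192 (12.0%) overlapped neither, against 12.8%. These shares are near the background of the whole list. Median score and width were 51.2 and 706 bp for the V peaks in both replicates. They were 7.33 and 256 bp for replicate 1 alone, 6.80 and 240 bp for replicate 2 alone, and 4.52 and 168.5 bp for neither.

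The share found in both replicates was 47.8% on the left (43.6 to 52.0), 56.8% in the middle (52.8 to 60.7) and 50.3% on the right (45.7 to 54.9). As a density, peaks in both replicates stood at 37.3 per Mb on the left (32.9 to 42.1), 49.8 in the middle (44.7 to 55.3) and 32.4 on the right (28.3 to 36.9). Peaks in replicate 1 alone had another order, with 25.4 per Mb on the left (21.8 to 29.4), 21.4 in the middle (18.1 to 25.1) and 18.6 on the right (15.6 to 22.1). Those in replicate 2 alone were level, at 5.74, 5.74 and 6.17 per Mb. Those in neither replicate stood at 9.61, 10.75 and 7.17 per Mb. The excess of peaks in the middle segment was thus largest among peaks that both replicates found. Against the right segment, peaks in replicate 1 alone and in neither also added to it.

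**Figure D4:**
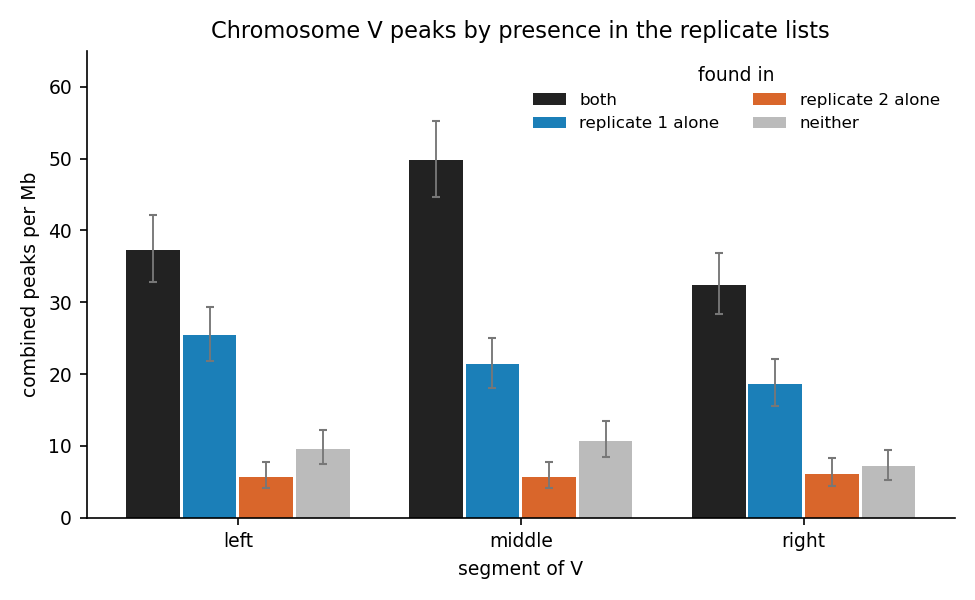
Combined V peaks per Mb in each segment, split by the replicate lists in which an overlapping peak was found; bars start at 0 and error bars are 95% exact Poisson intervals. Peaks found in both replicates stand at 49.8 per Mb in the middle segment and at 37.3 and 32.4 on the left and right, while the other classes differ less.

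The score makeup of the segments moved with these shares. All nuclear combined peaks were ranked by score and cut into 4 classes of equal size. The top class, with scores of 58.2 or more, made up 21.3% of peaks on the left, 30.0% in the middle and 20.7% on the right. Its share on the other 5 chromosomes was 25.1%. Nearly all of these V peaks were found in both replicates: 115 of 116, 183 of 183 and 93 of 93. On the other 5 chromosomes 2229 of 2229 were. In the next class, from 13.9 to 58.2, the shares found in both were 81.0% (73.8 to 86.6), 82.9% (75.9 to 88.1) and 86.4% (79.1 to 91.5). In the class from 6.08 to 13.9 they were 15.8% (10.9 to 22.4), 27.2% (20.7 to 34.9) and 21.5% (15.3 to 29.4). In the lowest class they were 4.48% (2.07 to 9.42), 2.22% (0.759 to 6.33) and 2.78% (0.949 to 7.85). The other 5 chromosomes had 84.8%, 24.7% and 1.68% in these 3 classes, so the shares on V were near theirs. Within each of these classes, the intervals of the segments overlapped.

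The exception in the top class was V:4171140-4171730, on the left, named after its value was seen. It scored 63.1 in the combined list and was found in replicate 1 alone. It was the only peak of that class, over the 6 nuclear chromosomes, without a partner in both replicates.

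Seen from the replicates, 878 of the 1382 replicate 1 peaks on V (63.5%, 61.0 to 66.0) overlapped a replicate 2 peak, against 63.8% over all nuclear peaks. Of the 1173 replicate 2 peaks on V, 933 (79.5%, 77.1 to 81.8) overlapped a replicate 1 peak, against 83.3% of the whole list and 83.9% (83.0 to 84.8) on the other 5 chromosomes. By segment, the replicate 1 share was 59.1% (54.7 to 63.4) on the left, 68.7% (64.7 to 72.5) in the middle and 61.8% (56.7 to 66.6) on the right. For replicate 2 the shares were 80.4%, 80.9% and 76.7%, with overlapping intervals. Over 769 pairs of V peaks that overlapped only each other, scores ranked alike with a Spearman rho of 0.864, and 0.863, 0.870 and 0.857 from left to right. The midpoints of paired peaks lay a median of 41 bp apart, and replicate 1 had the wider peak in 80.5% of pairs.

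Part of the unshared replicate 2 peaks stood in compact runs. A run is at least 5 consecutive peaks without a partner in the other replicate, each within 2 kb of the next. Replicate 2 had 7 runs on V with 47 of its 240 unshared V peaks (19.6%), and replicate 1 had none among 504. On the other 5 chromosomes together, replicate 2 had 15 runs with 126 of 1019 unshared peaks (12.4%), ranging from 3.47% on II to 26.5% on X. Replicate 1 had 3 runs there, with 15 of 2782 unshared peaks (0.539%), so its lack of runs on V was near that share. Of the 47 run peaks on V, 22 were in the combined list. The replicate 2 peak count exceeded that of replicate 1 in 4 of the 21 1-Mb bins, although its list is the shorter one.

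The run with the highest scores lay in the sparse part of the right segment, at V:17115562-17132112, with 11 peaks. Their scores ran from 5.86 to 34.95 around a median of 30.7, and their widths from 256 to 2430 bp. For comparison, the median over all V peaks of replicate 2 was 10.6. The combined list had 12 peaks there with a median score of 8.17, against 13.6 over all its V peaks. Scores of the 2 lists are not on a known common scale. C. elegans carries its 5S ribosomal RNA genes in a tandem array on V, and 15 of the 22 rRNA genes in the WBcel235 gene table are on that chromosome. Where that array lies on WS220 was not analysed here, and its part in the run was not tested. Without the run, the bin at 17 to 18 Mb would have 34 replicate 2 peaks and 28 replicate 1 peaks.

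The other runs were weaker. One on the left, at V:3434627-3441156, had 7 peaks with a median score of 7.20, of which 6 were in the combined list. In the middle segment, runs lay at V:10020987-10023311 (5 peaks, median score 3.45), V:10606917-10611584 (9 peaks, 2.79) and V:11118466-11120830 (5 peaks, 2.62). Both others were on the right, at V:17308741-17311499 (5 peaks, 4.81) and V:20668032-20672571 (5 peaks, 2.53). The 9-peak run and the last pair had no combined peak.

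Compared with the other chromosomes, V was sparse, and its peaks leaned most towards the middle segment. Its density of 76.7 combined peaks per Mb (73.0 to 80.5) was 0.668 of the mean of the other 5, with 0.664 in replicate 1 and 0.685 in replicate 2. Only X was sparser, at 54.5 per Mb. Peaks on V were not unusual in themselves, with a median width of 390 bp, within the range of 368 to 414 bp over the other chromosomes, and a median score of 13.6, within 12.9 to 14.7. The middle-to-outer density ratio of V was 0.30 on the log2 scale, against -0.05 on I, 0.08 on II, -0.13 on III, -0.23 on IV and -0.32 on X. It was the highest of the 6 in each list, at 0.32 in replicate 1 and 0.37 in replicate 2, where the next were 0.01 and 0.20, both on II. V was not the most uneven by size, since the ratio of X was negative and larger in size in each list. On X it was -0.36 in replicate 1 and -0.42 in replicate 2. Peak-poor stretches took 39.2% of the outer segments and 20.5% of the middle segment of V. On X, which had the largest share of such stretches, the values were 41.1% and 42.0%, and on IV they were 24.1% and 15.2%. They were 8.60% and 6.01% on I, 23.4% and 21.4% on II, and 11.8% and 5.48% on III. A larger share in the outer segments was thus seen on every autosome of the combined list, not on V alone. With 1 chromosome set against 5, a one-sided exact permutation test cannot go below p = 0.167, so none of these differences is called particular to V.

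**Figure D5:**
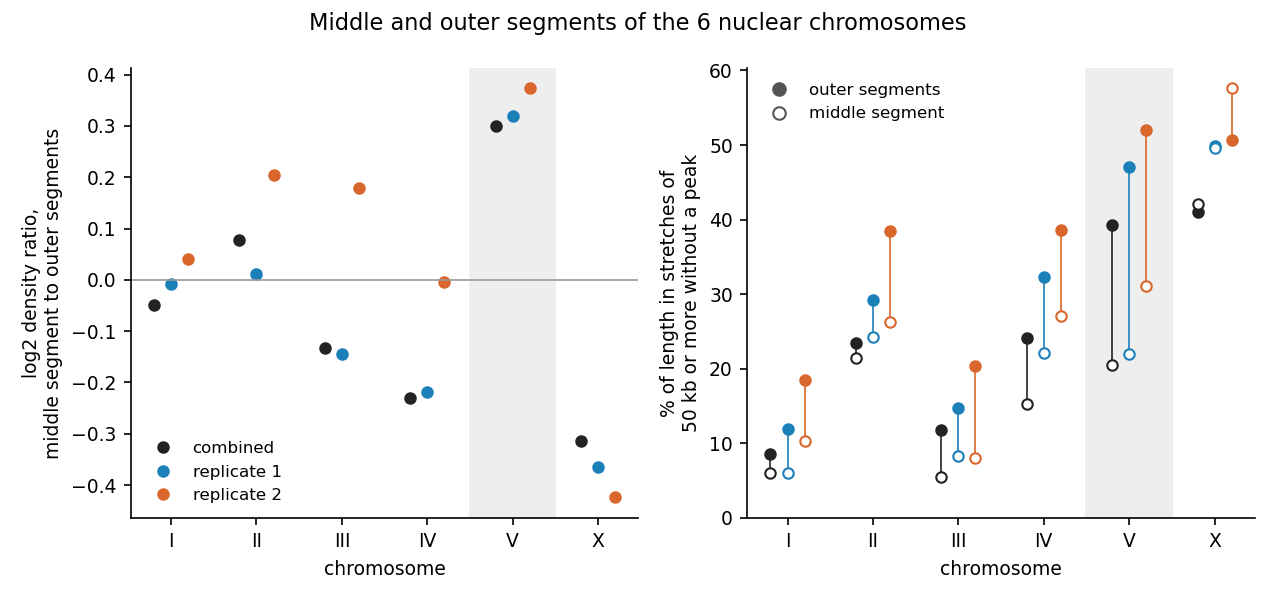
Left, log2 ratio of peak density in the middle segment to that in the outer segments for each nuclear chromosome and list; right, percent of the outer segments (filled) and of the middle segment (open) in stretches of 50 kb or more without a peak. V, shaded, has the highest ratio in the combined list (0.30), replicate 1 (0.32) and replicate 2 (0.37).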

How the data were processed

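ChIP-seq peaks of NURF-1 in L3 larvae were taken from 3 lists the authors deposited: 1 for each of 2 ChIP replicates and 1 combined list. Peaks were called with MACS on WormBase WS220, per the file headers, and reads were aligned with BWA to ce10, per the submitters' processing notes. Worms were crosslinked for 20 minutes with EGS and 10 more with EGS and formaldehyde, per the labels' protocols. Tool versions, filters, how the input was used and how the combined list was made were not given in the sources used here. The deposited score has no stated scale or threshold, and a stricter threshold gives fewer, wider-spaced peaks. Reads were not used, so depth is unknown.

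Peaks with V in the chromosome column were kept. Density, width, score, spacing and overlap (at least 1 bp) were computed with Python 3.11.15, numpy 2.4.6, pandas 2.3.3 and scipy 1.17.1, and plotted with matplotlib 3.10.9. The functions were checked on simulated lists. The region, segments and lists were chosen with earlier results of these data known. Named regions are, per segment (1 of 3 of equal length), the 3 combined peaks of highest score among those in both replicates, the 2 widest and the 3 longest stretches, and over V the 2 fullest and 2 emptiest 1-Mb bins, the 3 longest chains and all runs; others are said to be chosen after their values were seen. Alternatives were each replicate list alone, combined peaks in both replicates, another division of V, score limits, covered bases, chromosome ends left out and other overlap rules.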

Additional observations from a re-analysis of the deposited data

How the results depend on the processing

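Of 52 alternative values for 11 results, 19 stayed within the spread between the replicate lists or the interval of the value reported. The other 33 moved beyond it. No direction changed except that of median spacing, which was near 0 and not called. The spread is an SD of only 2 values, those of the replicate lists, which also count among the alternatives. The tally is therefore only a rough description. The log2 middle-to-outer density ratio of 0.30 was 0.51 with peaks in both replicates, 0.49 with the top 50% by score, 0.98 with the top 10% and 0.47 with covered bases, and 0.32 to 0.37 in the replicate lists alone. The log2 left-to-right ratio of 0.28 was 0.41 with outer segments of 30%, 0.51 with the top 10% and 0.40 with covered bases. The log2 ratio of middle to outer median scores, 0.46, was 0.58 with the top 50% and 0.19 to 0.35 in the replicate lists. That of median widths, 0.32, was 0.14 with peaks in both replicates, 0.14 with the top 50%, 0.36 with outer segments of 30% and 0.28 to 0.30 in the replicate lists. That of median spacing, -0.04, had no constant sign, at -0.04 to 0.26 in the replicate lists and 0.04 with peaks in both replicates. The gap in peak-poor length, 18.7 percentage points, was 24.4 with peaks in both replicates, 24.7 with the top 50%, 6.65 for stretches of 100 kb or more and 21.01 to 25.1 in the replicate lists. The gap in the share of strong peaks, 4.56 points, was 8.90 with the top 25% and 1.79 to 3.14 in the replicate lists. Density relative to the other chromosomes was 0.664 to 0.685 in the replicate lists. The share of V peaks in both replicates, 51.9%, was 38.0% with a 50% reciprocal overlap and 47.3% with midpoints within 200 bp. It was 61.4% when the combined list and both replicate lists were each cut to their own top 50% by score. That cut also removes possible partners. Against the uncut replicate lists, the share was 83.3% for combined V peaks scoring 13.9 to 58.2 and 99.7% for those above. For replicate 1 peaks in replicate 2 these settings gave 48.3%, 58.3% and 73.5%, and for replicate 2 peaks in replicate 1 57.0%, 69.0% and 87.0%. A 50% reciprocal overlap can only lower these shares, because each such overlap is also one of at least 1 bp. Why the other values moved was not tested. No paired analysis was possible, because there is 1 group of 2 ChIP replicates and no other condition. The input libraries share the replicate numbers, but no values of theirs were analysed here. Without reads, an unshared peak may be absent or only below the other list's threshold.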
